A study of Mus musculus with 4 samples.

Results

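The genes described here mark the blood vessels of the brain: 29 genes of endothelial cells, which line the vessel lumen, and 11 of mural cells, the pericytes and smooth muscle cells wrapped around it. They were given as a list of 40 symbols, and every probeset whose platform annotation names 1 of these symbols alone was taken, which gave 65 probesets of 38 genes among 45101 on the array. Ly6c1 and Ly6a had no such probeset. The measurements are of hippocampal RNA from DBA/2J mice, an inbred strain, all male and 8 to 10 weeks old, which drank either untreated water (control, 0 mg/kg per day) or water with fluoxetine, a blocker of serotonin reuptake, at 18 mg/kg per day for 21 days. Each group of 12 mice was combined into 2 pools of 6, and each pool was read on 1 Affymetrix Mouse Genome 430 2.0 array. No genotype or other agent than fluoxetine is named for either group. A pool averages 6 animals, so the spread between pools understates that between mice, and the number of arrays limits the precision.

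Endothelial cells of the brain are joined by tight junctions built from claudins and occludin, and with pericytes and astrocyte end-feet they form the blood-brain barrier. They carry efflux pumps and organic anion transporters that decide which drugs and hormones enter the tissue. Their growth and quiescence are set by the receptors for vascular endothelial growth factor (Flt1, Kdr) and angiopoietin (Tek, with its partner Tie1). Pericytes are recruited through the platelet-derived growth factor receptor Pdgfrb, and arterial smooth muscle is recognised by the contractile proteins encoded by Acta2, Tagln and Myl9.

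An intensity of 100 was the submitters' limit for expression above background, and testing was restricted to probesets at 100 or more on at least 2 of the 4 arrays. This left 28 of the 65 probesets, from 18 endothelial and 5 mural genes. For 15 genes on the array no probeset was tested. Of these, 7 had all their values at or under 10.0: the adhesion molecule genes Pecam1 and Cdh5, the receptor genes Kdr and Tie1, the transcription factor gene Erg, the peptidase gene Anpep and Ndufa4l2. Pecam1, Cdh5 and Kdr define endothelium in most tissues, so these markers gave no support to the label in this tissue, and the vessel wall was read through the other genes. The remaining 8 (Emcn, Ocln, Sox17, Sox18, Cspg4, Notch3, Higd1b and Tagln) reached at most 103, and only Tagln, which encodes the smooth muscle protein transgelin, passed 100 on any array, with control pools at 103 and 87.6 and fluoxetine pools at 69.9 and 87.8, which overlap. Emcn, which encodes endomucin, read 49.1 and 52.0 in control against 84.5 and 69.4 in fluoxetine pools, and Sox18, an endothelial transcription factor gene, 54.3 and 37.7 against 71.2 and 71.9. Both fluoxetine values lay above both control values for each of these, under the limit.

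**Figure D1:**
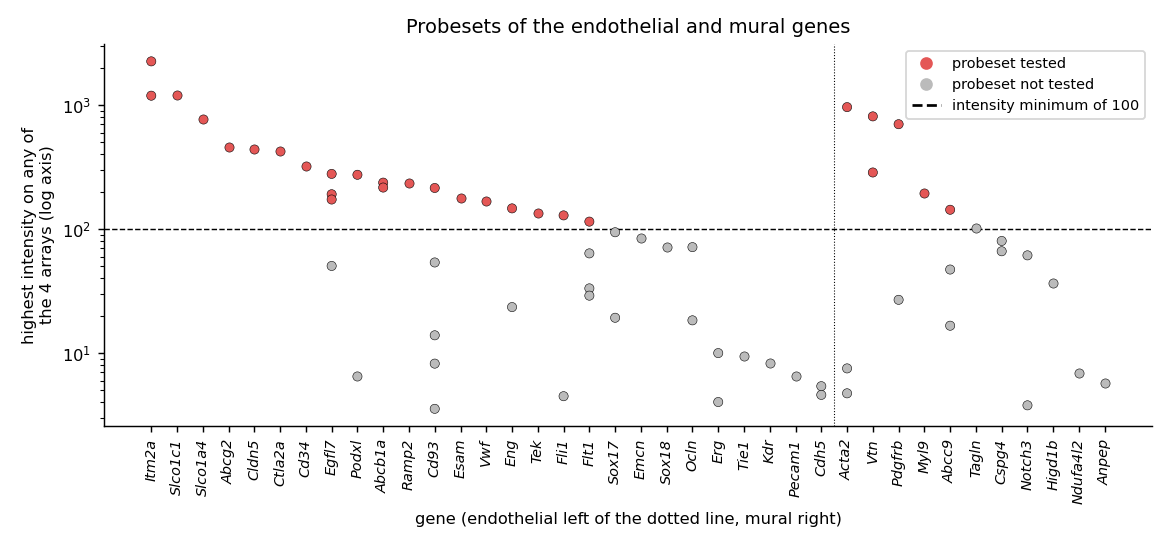
Highest intensity on any of the 4 arrays (log axis) for each of the 65 probesets of the 38 genes on the array, endothelial genes left of the dotted line and mural genes right. The 28 tested probesets (red) lie above the dashed line at 100, and 7 genes (Pecam1, Cdh5, Kdr, Tie1, Erg, Anpep and Ndufa4l2) have no value above 10.0.

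The endothelial genes Cd93 and Ctla2a and the pericyte gene Abcc9 were called higher in the fluoxetine pools, and no tested endothelial or mural gene was called lower. Fold changes are given as log2 differences, fluoxetine minus control, with limma's standard error (SE) and its Benjamini-Hochberg p adjusted over all 16938 tested probesets, and a gene is called where that p is under 0.05. Where a gene had several tested probesets, the brightest stands for it. Of 18 endothelial genes 2 were called (11.1%), and of 5 mural genes 1 (20%), all 3 higher. Over all 9030 tested genes 1.86% were called, 1.31% higher and 0.554% lower. Counted by probeset, 3 of the 28 passed, against 1.72% of all tested probesets. At an unadjusted p under 0.05 there were 14 of 18 endothelial and 2 of 5 mural genes, against 22% of all genes. The calls rest on all 4 arrays: with any 1 array left out limma called 0 of these genes, and 0 of all probesets, with 9 to 11 endothelial and 1 to 3 mural genes at an unadjusted p under 0.05. With no intensity filter it called 0 as well (13 endothelial and 2 mural at an unadjusted p under 0.05). With 100 required on all 4 arrays it called 1 of 14 endothelial genes (7.14%) and 0 of 4 mural genes, against 1.61% of probesets. At an unadjusted p under 0.05 there were then 10 endothelial and 2 mural genes. Cd93 was under 100 in both control pools and Abcc9 in control pool 2, so neither is in that count.

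Among the endothelial genes the log2 difference was above 0 for 14 and below 0 for 4, with a median of 0.34 and a range from -0.63 (Cd34) to 1.92 (Cd93). Over all tested genes 43.5% were above 0 and the median was -0.03. Both fluoxetine pools were above both control pools for 14 of the 18 genes, where 23.6% of all genes did the same, and below both for 3, where 32.7% did. Cd93, Flt1 and Fli1 were under 100 in both control pools and entered the test through their fluoxetine values alone, so these counts describe the genes that could be tested and not the whole list. Among the 14 genes that reached 100 on all 4 arrays, 10 were above 0 and 4 below, with a median of 0.29. The mural genes were divided, 2 above 0 and 3 below, with a median of -0.08, and the groups were apart upward for 2 and downward for 2. Bulk RNA cannot tell a change in the number of vascular cells from a change in RNA per cell.

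**Figure D2:**
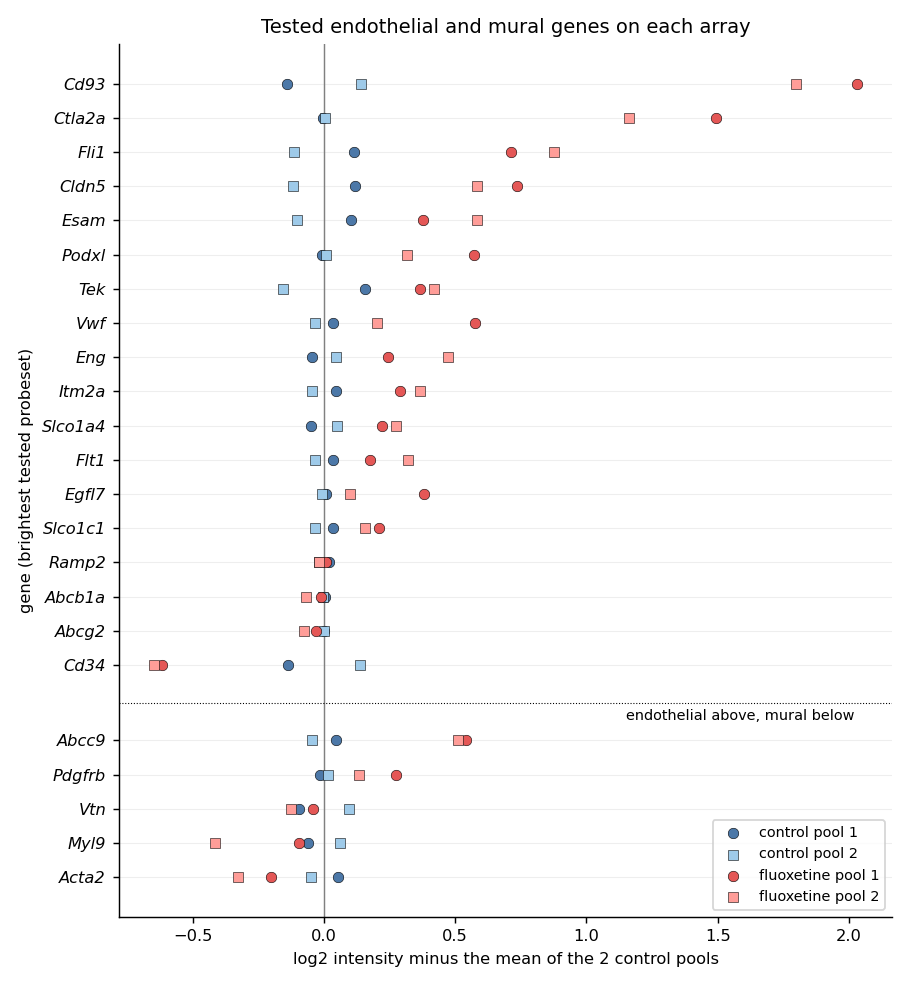
Log2 intensity of each tested gene on each of the 4 arrays, minus the mean of the 2 control pools of that gene, at its brightest tested probeset; circles are pool 1 and squares pool 2, blue control and red fluoxetine. For 14 of 18 endothelial genes both fluoxetine pools lie right of both control pools, while Cd34, Abcb1a, Abcg2, Acta2 and Myl9 lie left.

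Cd93 encodes a transmembrane C-type lectin of endothelial and some myeloid cells. Control pools read 47.7 and 57.8, and fluoxetine pools 215 and 183. The log2 difference was 1.92 ± 0.13 (SE, n = 2 arrays a group, limma adjusted p = 0.0252). Because both control values were under 100, the fold is given as a bound, at least 1.98-fold higher, and the log2 difference was 0.99 when values under 100 were set to 100. Over 14 other settings the adjusted p ran from 0.0117 to 0.166 and was under 0.05 in 8. Of its 4 other probesets, all under 100, the brightest read 17.3 in each control pool and 53.8 and 31.2 in the fluoxetine pools, and the remaining 3 stayed at or under 13.9 on every array. The call thus rests on 1 of 5 probesets.

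The other junction and surface genes that could be tested were Cldn5, Esam, Podxl and Cd34, and none of them passed. Cldn5, the main claudin of the blood-brain barrier, read 291 and 247 in control and 446 and 402 in fluoxetine pools, without overlap (log2 0.66 ± 0.11, adjusted p = 0.0707). Esam, an adhesion molecule of the same junctions, read 127 and 111 against 154 and 178 (log2 0.48 ± 0.11, adjusted p = 0.112). Podxl, which encodes the sialomucin podocalyxin on the luminal face, read 184 and 185 against 274 and 230 (log2 0.44 ± 0.10, adjusted p = 0.112). Each of these 3 was higher in both fluoxetine pools. The related sialomucin gene Cd34, carried by endothelial and stem cells, lay the other way, at 266 and 321 in control and 191 and 186 in fluoxetine pools (log2 -0.63 ± 0.11, adjusted p = 0.0725). Its 2 fluoxetine pools were close together and both under the lower control pool. Cldn5 crossed the threshold in 3 of 15 other settings, quantile normalization, centring each array on its median, and eBayes set to trend and robust, with adjusted p from 0.0437 to 0.258 over the 15.

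Of the receptor genes, Tek, Eng, Flt1 and Ramp2 were tested and none was called. Tek, the angiopoietin receptor gene, read 112 and 90.2 in control and 129 and 134 in fluoxetine pools (log2 0.39 ± 0.12, adjusted p = 0.162). Eng, which encodes the transforming growth factor beta co-receptor endoglin, read 103 and 109 against 125 and 147 (log2 0.36 ± 0.10, adjusted p = 0.148). Flt1 was close to the limit of 100, at 94.3 and 90.0 against 104 and 115, at least 1.09-fold higher (log2 0.25 ± 0.08, adjusted p = 0.179). Its log2 difference was 0.13 when values under 100 were set to 100. No groups overlapped, but the gap between the control pools of Tek was wider than that from the higher of them to the lower fluoxetine pool. Ramp2, the partner that turns the calcitonin-like receptor into an adrenomedullin receptor, was at 235 and 229 in control and 233 and 229 in fluoxetine pools, with overlapping groups (log2 -0.01 ± 0.07, adjusted p = 0.972), and the sign changed after quantile normalization (0.03) and median centring (0.02). It was the 1 endothelial gene of the 18 whose groups overlapped, while 56.3% of all tested genes had groups that did not.

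Ctla2a was the second endothelial gene called. It encodes an inhibitor of cathepsin-like proteases that is abundant in brain endothelium. The control pools read 150 and 151 and the fluoxetine pools 424 and 336, a 2.51-fold difference (log2 1.33 ± 0.13, adjusted p = 0.0352). Over 15 other settings the adjusted p ran from 0.0155 to 0.181 and was under 0.05 in 9. The spread between its fluoxetine pools, log2 0.33, was small beside the difference between the groups. Its near-identical neighbour Ctla2b had 1 probeset of its own, at 21.6 and 17.2 in control and 37.5 and 21.0 in fluoxetine pools, too dim to be tested, and cross-hybridisation between the pair was not tested. Vwf, the clotting factor stored in endothelial granules, read 117 and 111 in control and 170 and 131 in fluoxetine pools (log2 0.39 ± 0.14, adjusted p = 0.201). Itm2a, a membrane protein gene abundant in brain vessels, gave like values at both of its probesets, 0.33 ± 0.07 (adjusted p = 0.106) and 0.39 ± 0.09 (adjusted p = 0.107). At the brighter of them the control pools read 1805 and 1698 and the fluoxetine pools 2137 and 2254. All 3 tested probesets of Egfl7, which encodes a secreted factor of growing vessels, lay between 0.24 and 0.25, with adjusted p from 0.176 to 0.289, and its fluoxetine pools read 279 and 229 at the brightest against 215 and 213 in control.

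None of the 4 transporter genes, which carry drug and hormone traffic at the barrier, passed. Abcg2, which encodes the efflux pump BCRP, read 457 and 456 in control and 447 and 433 in fluoxetine pools (log2 -0.05 ± 0.07, adjusted p = 0.653). Abcb1a, which encodes the efflux pump P-glycoprotein, read 237 and 236 against 235 and 225 at its brighter probeset (log2 -0.04 ± 0.07, adjusted p = 0.756). Its second probeset had the opposite sign, 0.17 ± 0.10 (adjusted p = 0.396), and Abcb1a was the 1 gene of the 4 with several tested probesets where these disagreed in sign. The organic anion transporter gene Slco1a4 read 618 and 663 in control and 746 and 775 in fluoxetine pools (log2 0.25 ± 0.07, adjusted p = 0.154). Slco1c1, whose product carries thyroid hormone into the brain and is also made by astrocytes, read 1065 and 1014 against 1201 and 1158 (log2 0.18 ± 0.07, adjusted p = 0.219). The groups did not overlap for any of the 4 brighter probesets, upward for both anion transporters and downward for both pumps, but every difference was at most 0.25. Of all tested genes 23.6% lay apart upward and 32.7% downward. With both probesets of Abcb1a averaged its difference was 0.06.

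**Figure D3:**
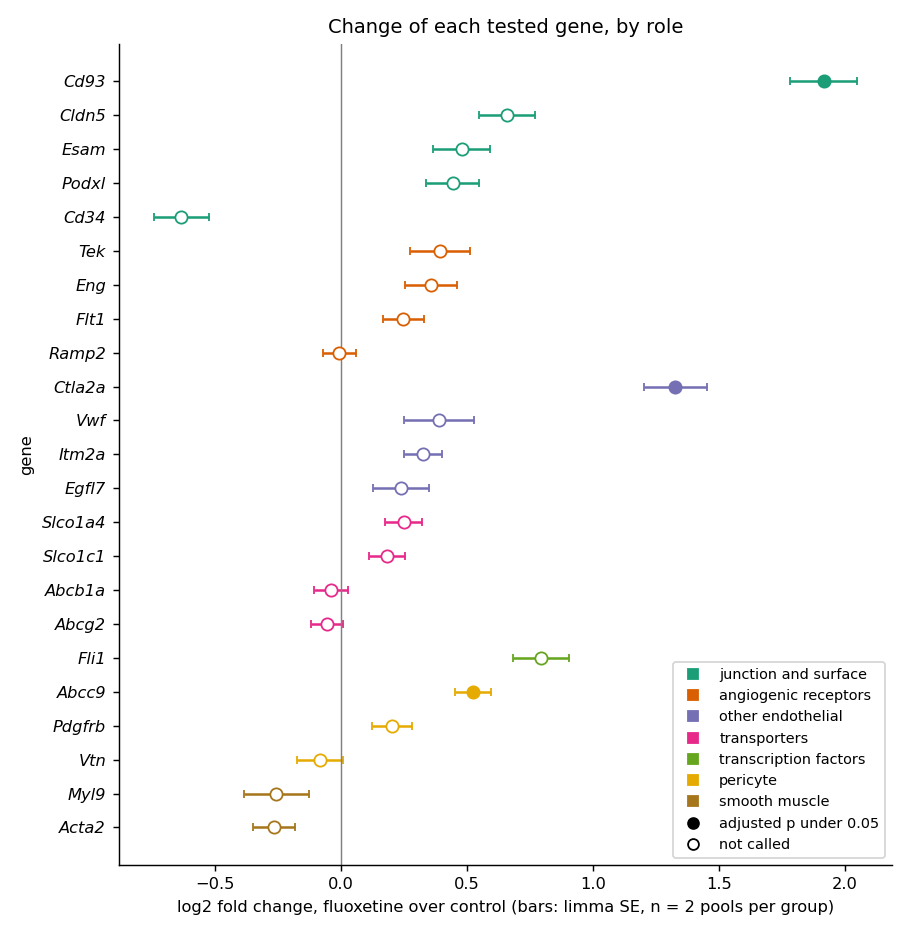
Log2 fold change (fluoxetine over control) with limma's SE for each of the 23 tested genes, coloured by role; filled points have an adjusted p under 0.05. Only Cd93 (1.92), Ctla2a (1.33) and Abcc9 (0.52) are filled, and the transporters lie between -0.05 and 0.25.

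Endothelial identity depends on transcription factors of the ETS family, such as those encoded by Fli1 and Erg, and of the SOX family, such as those of Sox17 and Sox18. Fli1 was the 1 factor gene of these 4 that could be tested. It read 76.2 and 64.9 in control and 115 and 129 in fluoxetine pools, at least 1.22-fold higher against the limit of 100, and did not pass (log2 0.79 ± 0.11, adjusted p = 0.0544). It passed in 3 of 14 other settings, quantile normalization, median centring and the averaging of a gene's probesets, with adjusted p from 0.0358 to 0.226 over the 14, and its log2 difference was 0.29 when values under 100 were set to 100. Fli1 is also expressed by microglia, whose markers were higher as well, as given below. Sox17 stayed at or under 94.3 with overlapping groups at both of its probesets.

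Promoters were looked at for the binding letters of these factors, as a description of the genes. A link between these letters and the direction of the fluoxetine differences was not tested. RefSeq (GRCm38.p6) promoter entries were found for 25 of the 40 genes, and the 250 bases before each start site were searched on both strands for AGGAAG, a common form of the ETS core, AACAAT, a SOX core, and the CArG box of serum response factor, which drives smooth muscle genes. AGGAAG was present in 17 of 27 promoters of 18 endothelial genes (63%), in 0 of 7 promoters of mural genes, and in 29.6% of all 32619 promoters of that length. These 18 are the genes with a promoter entry and not the 18 tested genes. Emcn, Erg, Kdr, Ly6c1, Ocln and Tie1 are among them but were not tested. Cd93, Fli1, Esam, Podxl, Vwf and Ramp2 were tested but had no entry. AACAAT was present in 5 of the 27 (18.5%), 0 of the 7, and 9.34% of all. The CArG box was searched only in its strict form, CCWWWWWWGG with W for A or T. This form was present in 1 of the 7 mural promoters, that of Myl9, in 0 of the 27 and in 1.48% of all. Looser forms with a G or C inside were not counted, and the Acta2 window holds ccctatatgg and ccttgtttgg. Some genes have several overlapping promoters in these counts, and a match describes letters and not a site in use. The promoters of the endothelial genes Cldn5, Kdr and Ocln held neither the ETS nor the SOX letters. The called gene Ctla2a, the genes Eng and Itm2a and the oppositely directed Cd34 are printed as examples that hold matches. The printed sequences run 5′ to 3′ on the gene's strand, with matches to the ETS and SOX letters, on either strand, in capitals. They lie at chr13:60936626-60936875, minus strand (Ctla2a), chr2:32646345-32646594, plus strand (Eng), chrX:107403361-107403610, minus strand (Itm2a) and chr1:194938571-194938820, plus strand (Cd34), each ending at the base before the gene.
Ctla2a: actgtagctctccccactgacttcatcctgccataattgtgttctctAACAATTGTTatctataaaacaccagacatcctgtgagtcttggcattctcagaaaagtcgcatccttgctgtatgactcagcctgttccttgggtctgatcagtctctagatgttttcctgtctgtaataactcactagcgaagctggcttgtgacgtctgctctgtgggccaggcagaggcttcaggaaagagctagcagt
Eng: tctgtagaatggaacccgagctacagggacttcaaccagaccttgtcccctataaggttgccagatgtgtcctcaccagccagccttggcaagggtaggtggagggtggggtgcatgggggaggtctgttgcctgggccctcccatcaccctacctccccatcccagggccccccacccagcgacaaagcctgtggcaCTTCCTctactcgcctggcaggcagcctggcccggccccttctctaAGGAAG
Itm2a: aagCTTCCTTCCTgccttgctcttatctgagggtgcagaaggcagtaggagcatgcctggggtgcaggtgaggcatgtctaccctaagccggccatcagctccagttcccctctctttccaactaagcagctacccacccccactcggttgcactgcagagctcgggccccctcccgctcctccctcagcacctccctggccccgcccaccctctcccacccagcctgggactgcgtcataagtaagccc
Cd34: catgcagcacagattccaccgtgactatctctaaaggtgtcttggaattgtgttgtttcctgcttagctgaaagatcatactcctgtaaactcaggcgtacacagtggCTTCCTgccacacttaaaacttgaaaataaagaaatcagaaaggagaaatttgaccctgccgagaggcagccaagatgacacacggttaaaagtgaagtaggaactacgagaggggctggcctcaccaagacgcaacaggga
The window printed for Ctla2a holds overlapping SOX matches on both strands and no ETS match, while a second, overlapping window of an inner start site of that gene holds 1 ETS match. Eng and Itm2a hold 2 ETS matches each, and Cd34, whose intensity lay the other way, holds 1.

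Among the pericyte genes, Abcc9 was called. It encodes SUR2, the sulphonylurea receptor subunit of the potassium channel that ties pericyte membrane potential to cell metabolism. It read 102 and 95.5 in control and 143 and 140 in fluoxetine pools (log2 0.52 ± 0.07, adjusted p = 0.0495). Pools of each group were close together and the groups did not overlap, with 3 of the 4 arrays at 100 or more. Its other 2 probesets stayed at or under 47.2 on every array. The call sits at the threshold: over 13 other settings the adjusted p ran from 0.0337 to 0.205 and was under 0.05 in 4. The probeset is of the _s_at type, which can match several transcripts. Pdgfrb read 574 and 585 in control and 702 and 635 in fluoxetine pools, without overlap (log2 0.20 ± 0.08, adjusted p = 0.226). Vtn, which encodes the matrix protein vitronectin and is strongly expressed by brain pericytes, overlapped between groups at both probesets, with 713 and 811 against 739 and 697 at the brighter (log2 -0.08 ± 0.09, adjusted p = 0.631).

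Neither of the 2 tested smooth muscle genes, Acta2 and Myl9, passed. Acta2, which encodes smooth muscle alpha actin, read 963 and 897 in control and 808 and 741 in fluoxetine pools (log2 -0.27 ± 0.08, adjusted p = 0.165). Myl9, which encodes a regulatory myosin light chain, read 180 and 196 against 176 and 141 (log2 -0.26 ± 0.13, adjusted p = 0.316). Both had the fluoxetine pools under the control pools, as did 32.7% of all tested genes. A test of the difference between the endothelial and the smooth muscle genes was not made.

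Other genes of the vessel wall were read from 6 lists by role. These lists were chosen with earlier results of these data known, so their shares are a description and not an independent test. Of 139 symbols listed 133 had a probeset naming that gene alone. Gpr116 and Adgrf5, both listed, are symbols of the same gene. Tested were 55 genes, of which 40 were above 0, where 43.5% of all tested genes were. By limma 6 genes rose and 0 fell at the brightest probeset (10.9%), against 1.86% of all genes called. Counted by probeset, 6 of the 83 tested were called higher and 1 lower, against 1.72% of all tested probesets called. The lower one was a dimmer probeset of a gene in the transcription factor list. Limma called 0 of the 55 with any 1 array left out (22 to 27 at an unadjusted p under 0.05) and 0 of 133 with no intensity filter (40 at an unadjusted p under 0.05). Adgrl4 was under 100 in both control pools and was tested through its fluoxetine values alone, and of the 50 genes at 100 or more on all 4 arrays 5 rose. Of 11 further endothelial receptor and adhesion genes 2 rose, with a median of 0.42. Adgrl4, an adhesion receptor of growing vessels, read 70.8 and 69.2 in control and 159 and 146 in fluoxetine pools, at least 1.52-fold higher (log2 1.12 ± 0.08, adjusted p = 0.0252). Tgfbr2, the type II receptor of transforming growth factor beta, read 291 and 296 against 598 and 487 (log2 0.88 ± 0.12, adjusted p = 0.0486). The caveolar coat gene Cav1 had the largest difference of that list without passing, at 163 and 167 against 461 and 300 (log2 1.18 ± 0.21, adjusted p = 0.0754). Plvap, which encodes a protein of fenestrated vessels that the mature barrier lacks, lay at -0.22 ± 0.07 (adjusted p = 0.178).

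Of 13 further barrier transporter and junction genes 1 rose, with 12 above 0 and a median of 0.20. This was the monocarboxylate transporter gene Slc16a1, at 1190 and 1196 in control and 2103 and 1897 in fluoxetine pools (log2 0.74 ± 0.08, adjusted p = 0.0380). The iron exporter gene Slc40a1 (0.73 ± 0.11, adjusted p = 0.0641) and the amino acid transporter genes Slc7a1 (0.34 ± 0.09) and Slc7a5 (0.27 ± 0.06) did not pass. Of 8 further endothelial transcription factor genes 2 rose, Lmo2 (0.91 ± 0.08, adjusted p = 0.0341), a partner of blood and vessel factors, and Id3 (0.73 ± 0.07, adjusted p = 0.0352), a target of bone morphogenetic protein signalling. Foxo1, a factor of endothelial quiescence, lay at -0.51 ± 0.11 (adjusted p = 0.0967), and Id1 at 0.51 ± 0.09 (adjusted p = 0.0755).

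The 10 tested angiogenic ligand and oxygen-sensing genes gave 0 calls by limma, with 3 at an unadjusted p under 0.05 and a median of -0.03. Vegfa read 391 and 463 in control and 463 and 564 in fluoxetine pools (log2 0.26 ± 0.14, adjusted p = 0.327). Vegfb (-0.51 ± 0.15, adjusted p = 0.150), the neuropilin gene Nrp2 (0.27 ± 0.08) and the Notch ligand gene Jag1 (-0.23 ± 0.14) did not pass either. Of 6 further pericyte genes 1 rose, Rgs5, which encodes a regulator of G protein signalling, at 1768 and 1761 in control and 2660 and 2648 in fluoxetine pools (log2 0.59 ± 0.06, adjusted p = 0.0380). The sphingosine phosphate receptor gene S1pr3 had the largest difference of the 55, at 130 and 126 in control and 691 and 347 in fluoxetine pools (log2 1.94 ± 0.33, adjusted p = 0.0707). Its fluoxetine pools were far apart. The transporter gene Slc6a20a lay the other way without overlap, at 282 and 393 in control and 267 and 137 in fluoxetine pools (log2 -0.80 ± 0.35, adjusted p = 0.269). Ifitm1, an interferon-induced membrane protein gene, lay at 0.63 ± 0.24 (adjusted p = 0.214). The 7 further smooth muscle genes gave 0 calls by limma and 4 at an unadjusted p under 0.05, with 5 above 0 and a median of 0.09. The kinase gene Mylk (0.79 ± 0.12, adjusted p = 0.0582), the filamin gene Flna (0.51 ± 0.11, adjusted p = 0.0918) and the tropomyosin gene Tpm1 (0.31 ± 0.07, adjusted p = 0.114) lay above 0. The myosin heavy chain gene Myh11 read 104 and 114 in control and 65.7 and 78.4 in fluoxetine pools, at least 1.09-fold lower against the limit of 100 (adjusted p = 0.0814).

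**Figure D4:**
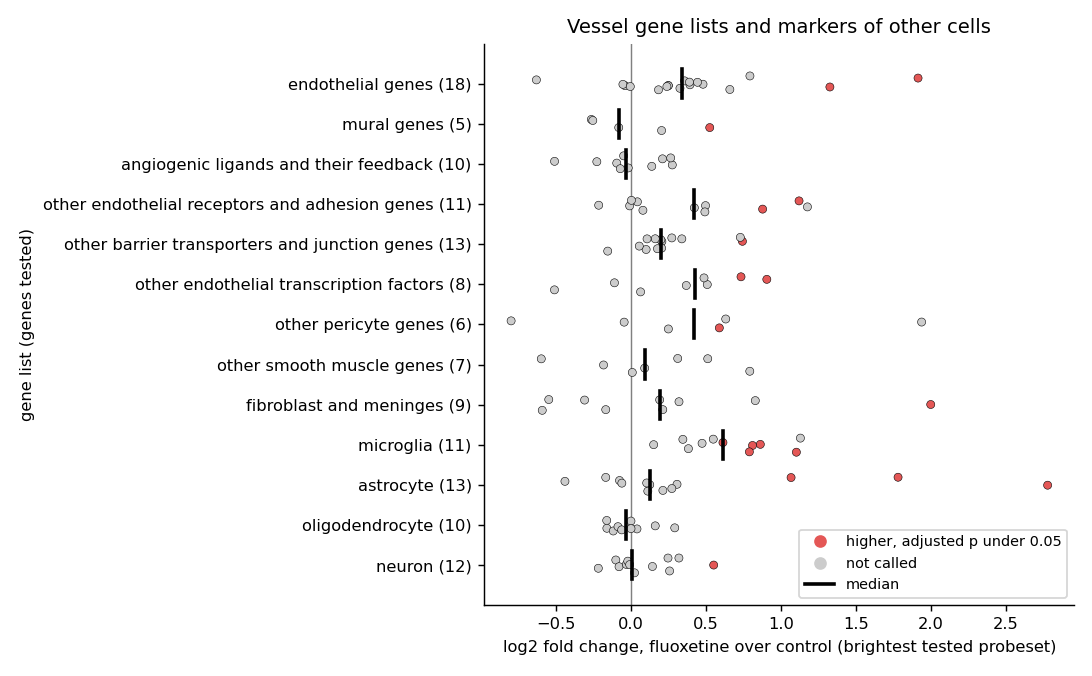
Log2 fold change (fluoxetine over control) of each tested gene, by list, with the number tested in brackets; black bars are medians and red points have an adjusted p under 0.05. The endothelial median is 0.34 and the mural -0.08, and the microglia list has the highest median, 0.61.

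Markers of other cells, from lists also chosen with earlier results known, moved in the same comparison. All 11 tested microglia genes were above 0 and 5 rose, with a median of 0.61 and a summed intensity of 8130 to 8458 in control and 12748 to 13049 in fluoxetine pools, against 6047 to 6200 and 7474 to 7625 for the 18 endothelial genes. Of 13 astrocyte genes 9 were above 0 and 3 rose, Gfap, Vim and Aqp4, with a median of 0.12 (summed 79428 to 81233 against 92358 to 94245). The groups lay apart upward for 7 and downward for 3, against 23.6% and 32.7% of all tested genes. Fgfr3 lay lowest, at -0.44 ± 0.10 (adjusted p = 0.110). Of 9 fibroblast and meningeal genes 5 were above 0 and 1 rose, Col3a1, while their summed intensity overlapped between groups (4007 to 5088 against 4739 to 4948). Col3a1 read 59.0 and 56.4 in control and 239 and 223 in fluoxetine pools, so it was tested through its fluoxetine values alone. Of that list, Col1a1 was at or under 20.2 on every array, and Dcn was between 1724 and 2570 with overlapping groups. Col1a2 read 174 and 228 in control and 360 and 348 in fluoxetine pools (log2 0.83 ± 0.14, adjusted p = 0.0711). Lying below 0 were Igf2 (-0.55 ± 0.32, adjusted p = 0.379), without overlap, and Aldh1a2 (-0.59 ± 0.37, adjusted p = 0.401), with overlap. The 12 neuron genes had a median of 0.01 and the 10 oligodendrocyte genes -0.03, with 1 and 0 called by limma and 3 and 0 at an unadjusted p under 0.05. Of 12 red cell and platelet genes listed, 7 had a probeset naming that gene alone. All values of these 7 were at or under 21.4, and none was tested. The others, among them the globin genes Hbb-b1, Hbb-bt and Hbb-bs, had no such probeset and were not read. The blood content of the pools is therefore not known from these values. The 18 hybridisation spike-in probesets, added in fixed amount, were all higher in both fluoxetine arrays, with a median difference of 0.36 on the log2 scale. Tested probesets had a median of -0.04. The part of microglia, astrocytes and spike-in level in the vascular values was not tested.

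The choroid plexus transcript Ttr was high in the pools numbered 1 of both groups. It read 37856 in control pool 1 and 2002 in control pool 2, and 51101 and 4429 in fluoxetine pools 1 and 2. The endothelial genes showed no such split: fluoxetine was above control for 14 of 18 genes between pools numbered 1 (median 0.27) and for 15 of 18 between pools numbered 2 (median 0.33). Pool 1 was above pool 2 for 12 of 18 endothelial genes in control and 11 of 18 in fluoxetine, against 55.4% and 54.1% of all tested genes. Of the 5 tested mural genes, pool 1 was above pool 2 for 2 in control and for all 5 in fluoxetine. The mural median was 0.05 between pools numbered 1 and -0.22 between pools numbered 2, so the mural genes as a group had no steady direction. Within them, the 2 smooth muscle genes were below control in both pairs. Of the 3 pericyte genes, 3 were above control between pools numbered 1 and 2 between pools numbered 2.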

How the data were processed

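The deposited intensities, 1 per probeset on a linear scale, were made by the authors with GCRMA. The design text names ArrayAssist, and its version is not given in the sources. GCRMA pulls dim probesets towards a common floor. The deposited values were taken to log2 with no pseudocount. Of 45101 probesets 64 controls were left out, and 16938 reached 100 on at least 2 arrays and were tested with limma 3.58.1 in R 4.3.3 (lmFit, eBayes, two-sided, no covariate), with Benjamini-Hochberg adjustment over all of them. With 2 arrays a group, the smallest two-sided exact permutation p is 0.333. The design text calls the pools biological replicates. The SE and p-values of limma rest on the spread between pools, moderated by eBayes towards a value shared over all tested probesets. They do not measure the spread of a gene's own pools alone. For Rgs5 the pools of each group differed by log2 0.006, while its SE was 0.06. Group means are geometric. Probesets were named from the platform annotation: 34958 had 1 symbol, 932 several and 9211 none, and 4 listing a vascular gene beside another were not used. Of those with 1 symbol 34754 were matched by gene number to RefSeq, and 0 symbols changed. A fold with all arrays of 1 group under 100 is the brighter mean over 100. The fit was tested on simulated data. Genes, lists and motifs were chosen with earlier results of these data known. Any of the 40 genes could be named, and from each other list up to 4 with the largest absolute difference at the brightest tested probeset; Plvap, Dcn and Col1a1 were added after their values were seen. Marker lists covered fibroblasts and meninges, choroid plexus, blood, microglia, astrocytes, oligodendrocytes and neurons. Other settings tried were intensity filters, normalization by quantiles, median centring, a pseudocount of 32, a floor of 100, leaving out arrays, the pool number as a block, other probeset rules and other eBayes settings.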

Additional observations from a re-analysis of the deposited data

How the results depend on the processing

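Over 338 refits of single genes 305 kept direction and side of the threshold, 21 lost a call, 6 gained one and 6, all uncalled (Ramp2, Vtn and Abcb1a), changed sign. Leaving out any 1 array gave 0 calls by limma for endothelial, mural and other vascular genes and for all probesets, with 2657 to 3515 probesets at an unadjusted p under 0.05; the endothelial median then ran from 0.29 to 0.34 and the mural from -0.18 to 0.011. Fewer arrays leave 1 residual degree of freedom and the lone pool is assumed to vary like the others. With no intensity filter limma called 0 of all probesets, and 0 endothelial, mural and other vascular genes (13, 2 and 40 at an unadjusted p under 0.05), and the mural median was 0.010. With the pool number as a block, 9 probesets passed and 0 endothelial, mural or other vascular genes (12, 2 and 27 at an unadjusted p under 0.05); the labels do not say that the number marks a shared batch, and same-numbered pools' deviations correlated at 0.14 over probesets. Endothelial calls were 1 with 100 required on all arrays (Ctla2a) and 4 each after quantile normalization and median centring (Cldn5 and Fli1 added). Mural calls were 0 by limma with 100 on 1 array (2 at an unadjusted p under 0.05), with 100 on all arrays (2), with the pseudocount (3), without probesets ending in _s_at or _x_at (0) and with trend and robust eBayes (3). Probesets passing were 163 with 100 on 1 array and 532 with trend and robust eBayes, which also called 12 other vascular genes. The endothelial median was 0.29 with 100 on all arrays, 0.29 with the pseudocount and 0.30 with the floor, and the mural -0.18 with a gene's probesets averaged. Causes were not tested. Dim probesets limit what can be seen: 17 of the 40 genes had no tested probeset, among them Pecam1, Cdh5 and Kdr.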
